A study of Homo sapiens with 12 samples.

Results

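Aminoacyl-tRNA synthetases are the enzymes that join amino acids to their tRNAs, and this account covers 36 human genes for them. The members are a gene family taken up with earlier results of these data known, and its genes were found by symbol, using the older symbols in the tables: 20 cytosolic genes without a suffix and 16 mitochondrial genes with the suffix 2. All 36 were found among 25680 gene symbols. RNA was sequenced from 12 libraries of the multiple myeloma lines MM.1S and U266, in 4 groups of 3. MM.1S with IT848 and U266 with IT848 had 6 µM of this compound, labelled an inhibitor of NF-kB, for 6 h. MM.1S with DMSO and U266 with DMSO had the solvent for the same 6 h. No group carried an engineered genotype, and all cells grew in RPMI medium with serum. Separate cultures are not named in the labels, and p-values therefore measure the spread between these libraries, which may be technical.

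Each synthetase recognises its amino acid and the matching tRNAs, and the charged tRNA then supplies the ribosome. Most cytosolic and mitochondrial enzymes come from separate nuclear genes, but GARS and KARS encode both forms, and EPRS carries both the glutamate and the proline enzyme on a single chain. Uncharged tRNA activates the kinase GCN2 (EIF2AK4), whose arm of the integrated stress response raises the transcription factor ATF4, and many cytosolic synthetase genes are known ATF4 targets. Plasma cells and myeloma cells secrete large amounts of immunoglobulin and so place a heavy demand on charged tRNA.

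The libraries held 50627690 to 72039748 transcript counts, or 22887469 to 32913396 when the most counted transcript stood for each gene. Of the members, 35 passed the filter on low counts, among 16782 genes in all. VARS, the cytosolic valine gene, was listed at 0 in all 12 libraries. VARS2 had 0, 6 and 0 counts in MM.1S with IT848, 0 in each MM.1S DMSO library, 39, 75 and 42 in U266 with IT848, and 60, 69 and 81 in U266 with DMSO. Both symbols have only transcript entries that the tables list more than once. Of 769 such symbols, 39.1% were at 0 in all libraries, against 7.86% of 24911 others, so neither gene's level or change is read here. All 6 plasma cell markers were detected in both lines, and they moved with the treatment: 5 fell and 1 rose in MM.1S with IT848, and 6 fell in U266. Their summed level was 2216 to 2304 CPM in MM.1S with IT848 and 3348 to 3418 CPM with DMSO, and 1775 to 1845 CPM in U266 with IT848 and 2450 to 2634 CPM with DMSO. The part of this shift in the results on synthetases was not tested. The 10 markers of other cells were low but also moved: they summed to 19.3 to 25.1 CPM in MM.1S with IT848 and 12.4 to 15.9 CPM with DMSO, and to 27.6 to 33.8 CPM in U266 with IT848 and 22.8 to 26.2 CPM with DMSO. Of the 6 that were tested, HBB, COL1A1 and COL3A1 were called higher in MM.1S, by 1.21, 0.49 and 0.49 on the log2 scale, and COL3A1 in U266, by 0.50. KRT19 in MM.1S with IT848, LYZ in MM.1S with DMSO and MS4A1 in U266 with DMSO were at 0 in all libraries of the group, and the part of these markers in the results was not tested. In the first U266 IT848 library, 8 genes of MM.1S cells stood at 0.866% of their MM.1S level, against 0.0750% and 0.0773% in the other two. In the second MM.1S DMSO library, 13 genes of U266 cells stood at 0.358% of their U266 level, against 0.0316% and 0.0483%. Counts of calls are therefore also given without these 2 libraries. The origin of these reads was not tested.

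Promoter stretches are shown first because part of the cytosolic family shares a short motif at its start sites. RefSeq windows of 250 bases before to 50 bases after each start, in build GRCh38.p14, were found for 30 members, 16 cytosolic and 14 mitochondrial. The letters TGATGNAA, a composite site of C/EBP and ATF factors through which ATF4 is known to act, were searched on both strands in every listed window of a gene. They occurred in 7 of 16 cytosolic genes (AARS, CARS, GARS, IARS, MARS, NARS and TARS) and in 1 of 14 mitochondrial genes, YARS2, against 3.60% of 15843 protein-coding genes. In AARS, CARS, IARS, MARS and TARS the gene's strand reads TTGCATCA, and in NARS it reads the complement, TGATGCAA. GARS reads TTTCATCA in the second of its windows, and YARS2 reads TGATGGAA. The stretches below run 5′ to 3′ on the gene's strand, with the match in capitals. Their positions are chr16:70289646-70289733 (minus strand) for AARS, chr11:3057396-3057465 (minus) for CARS, chr7:30594805-30594892 (plus) for GARS and chr9:92293670-92293750 (minus) for IARS. The others are chr12:57488024-57488095 (plus) for MARS, chr18:57621809-57621862 (minus) for NARS, chr5:33440927-33440992 (plus) for TARS and chr12:32756047-32756134 (minus) for YARS2.
AARS: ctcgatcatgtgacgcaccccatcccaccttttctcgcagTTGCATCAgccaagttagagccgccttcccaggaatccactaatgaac
CARS: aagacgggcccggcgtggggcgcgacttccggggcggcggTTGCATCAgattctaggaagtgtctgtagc
GARS: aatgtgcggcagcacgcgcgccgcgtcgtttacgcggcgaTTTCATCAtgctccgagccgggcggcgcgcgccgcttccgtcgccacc
IARS: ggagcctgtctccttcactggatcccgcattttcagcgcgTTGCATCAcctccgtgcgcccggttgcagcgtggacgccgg
MARS: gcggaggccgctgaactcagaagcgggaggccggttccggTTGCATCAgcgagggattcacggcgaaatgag
NARS: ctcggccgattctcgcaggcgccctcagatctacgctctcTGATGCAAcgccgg
TARS: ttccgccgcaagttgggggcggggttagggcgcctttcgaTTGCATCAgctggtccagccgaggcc
YARS2: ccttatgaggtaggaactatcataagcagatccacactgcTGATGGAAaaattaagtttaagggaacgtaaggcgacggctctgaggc
The match lies within 20 bases of the start in CARS, IARS, MARS, NARS and TARS, 33 bases before it in GARS, and farther upstream in AARS and YARS2. None of these matches is shown to be bound, and a gene without the letters in this window may have them elsewhere. No match of a motif overlapped a match of another. TGACNNNGC, the core of the antioxidant response element, was found in 4 cytosolic and 2 mitochondrial genes, against 17.9% of protein-coding genes. GAANNTTC, a heat shock element, was found in 2 and 1, against 7.38%. CACGTG, an E-box of the kind MYC binds, was found in IARS alone of the cytosolic genes and in CARS2, EARS2 and MARS2, against 10.9%.

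With IT848, RNA of 10 of the 19 measured cytosolic synthetase genes rose in MM.1S and 3 fell, with estimates from −0.30 to 0.41 on the log2 scale. The genes that rose were CARS, GARS, TARS, MARS, SARS, RARS, AARS, YARS, EPRS and HARS. FARSB, FARSA and LARS fell. DARS, IARS, KARS, NARS, QARS and WARS did not pass the test. A change was called where the p-value of edgeR's quasi-likelihood test, adjusted over all 16782 genes, was below 0.05. By that rule 38.3% of all genes were called, 18.7% higher and 19.6% lower, and the median log2 change was 0.16 for the cytosolic genes and −0.01 for all genes. The count of 10 genes called higher was the same without the 2 libraries with more reads of the other line's genes. Transcript length was rank-correlated with each library's deviation from the mean of its line over both treatments. The correlations were −0.484 to 0.0286 in MM.1S with IT848 and 0.168 to 0.451 with DMSO. Because both treatments share that mean, opposite signs between them arise in part by construction. With the trend with length removed, 10 cytosolic genes were again called higher and 4 lower. In bulk RNA, a change in the number of cells of a kind and a change in RNA per cell cannot be told apart.

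**Figure D1:**
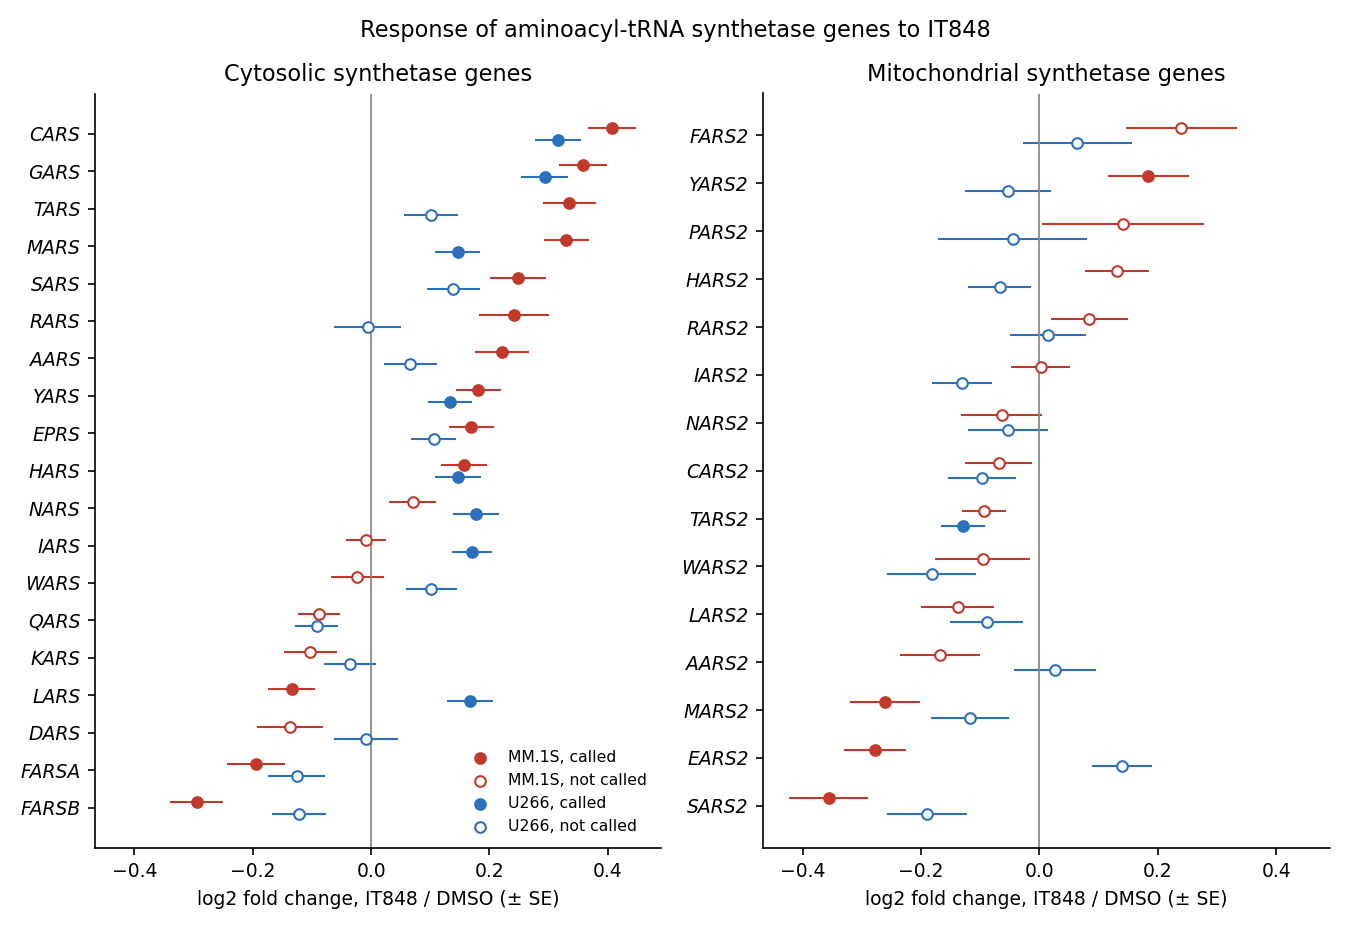
Log2 fold change of IT848 over DMSO (x axis, ± SE) for 19 cytosolic and 15 mitochondrial synthetase genes, ordered by the MM.1S value, in MM.1S (red) and U266 (blue). Filled points passed the test. CARS and GARS lead in both lines, and LARS and EARS2 have points on opposite sides of 0. VARS and VARS2 are not drawn.

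The cysteine enzyme gene CARS had 236, 221 and 233 CPM (counts scaled to the library's TMM-corrected total) in MM.1S with IT848, against 168, 176 and 176 CPM with DMSO. GARS, for glycine, had 120.3, 116 and 114 CPM with IT848, against 88.0, 91.6 and 93.5 CPM with DMSO. All IT848 libraries lay above all DMSO libraries for both genes. The log2 fold change was 0.41 ± 0.04 (SE) for CARS and 0.36 ± 0.04 for GARS, with edgeR adjusted p = 2.18e-06 and 1.03e-05.

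TARS, for threonine, had 596, 605 and 630 CPM in MM.1S with IT848, against 457, 487 and 508 CPM with DMSO. MARS, the methionine enzyme gene, had 105, 98.4 and 103 CPM with IT848, against 79.0, 81.3 and 83.1 CPM with DMSO. Neither gene's groups overlapped, and the log2 fold changes were 0.33 ± 0.05 for TARS and 0.33 ± 0.04 for MARS (edgeR adjusted p = 4.86e-05 and 1.29e-05). MARS exons overlap those of DDIT3 and ARHGAP9 on the opposite strand in the GENCODE annotation. The strand setting of the counting is not known here, so reads in the shared stretches cannot be told apart. DDIT3, a stress-induced factor, had an estimate of 0.15 ± 0.08 in MM.1S, not called, and rose by 0.58 ± 0.08 in U266, and its part in the MARS values was not tested.

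Smaller rises were measured for SARS, RARS and AARS. SARS, for serine, had 44.7, 45.9 and 49.8 CPM in MM.1S with IT848, against 39.4, 39.0 and 39.9 CPM with DMSO. RARS, for arginine, had 43.4, 45.0 and 48.9 CPM with IT848, against 36.9, 38.9 and 40.4 CPM with DMSO. AARS, for alanine, had 133, 122 and 117 CPM with IT848, against 104, 109 and 107 CPM with DMSO. The IT848 libraries were the higher ones throughout in these 3 genes. Their log2 fold changes were 0.25 ± 0.05, 0.24 ± 0.06 and 0.22 ± 0.05 (edgeR adjusted p = 0.000818, 0.00499 and 0.00147). YARS, EPRS and HARS rose by 0.18, 0.17 and 0.16 on the log2 scale.

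Both subunits of the phenylalanine enzyme moved the other way. FARSB, the beta subunit, had 61.1, 59.7 and 62.1 CPM in MM.1S with IT848, against 72.6, 74.4 and 77.5 CPM with DMSO. FARSA, the alpha subunit, had 51.6, 49.5 and 52.9 CPM with IT848, against 57.0, 57.8 and 61.6 CPM with DMSO. Neither pair of groups overlapped, and the log2 fold changes were −0.30 ± 0.04 and −0.20 ± 0.05 (edgeR adjusted p = 0.000117 and 0.00585). In U266 the estimates were −0.12 ± 0.05 for FARSB and −0.13 ± 0.05 for FARSA, and neither passed the test (edgeR adjusted p = 0.119 and 0.136).

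In U266, 8 of the 19 cytosolic genes rose with IT848 and none fell by edgeR's test, while 3 were lower at an unadjusted p below 0.05 and 1 was called lower by DESeq2. CARS and GARS again had the largest changes, followed by NARS, IARS, LARS, HARS, MARS and YARS. Of all genes, 9.01% were called in this line, 4.03% higher and 4.98% lower, and the median log2 change was 0.11 for the cytosolic genes and 0.01 for all genes. The IT848 libraries were all above the DMSO libraries for 13 of the 19 cytosolic genes in U266, against 14.3% of all genes, and all below for 3, against 14.6%. In MM.1S they were all above for 11 of the 19, against 22.4% of all genes, and all below for 5, against 24.9%. The U266 count of 8 depended on single libraries. It was 4 without the first and 3 without the third DMSO library. The count was 5 without the first and 3 without the third IT848 library. Without the 2 libraries with more reads of the other line's genes it was 4. CARS, GARS and IARS were called in U266 under all 20 alternatives tried. NARS lost its call without the first or the third DMSO library or the third IT848 library. LARS did so without the first or the third DMSO library or the second or the third IT848 library, and HARS without the second or the third DMSO library or the first or the third IT848 library. MARS lost it when any of the 6 U266 libraries was left out, and YARS under 11 of the 20 alternatives: when any U266 library but the second IT848 one was left out, without the first or the second MM.1S DMSO or the second MM.1S IT848 library, without the filter on low counts, and with RLE size factors. Without the 2 libraries with more reads of the other line's genes, HARS, LARS, MARS and YARS were not called.

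CARS had 390.2, 376 and 399.6 CPM in U266 with IT848, against 307, 316 and 313 CPM with DMSO. GARS had 337, 327 and 345 CPM with IT848, against 279.8, 276.5 and 267 CPM with DMSO. Both sets of groups were apart, with log2 fold changes of 0.32 ± 0.04 and 0.29 ± 0.04 (edgeR adjusted p = 0.000103 and 0.000231).

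NARS, for asparagine, had 249.8, 262 and 263 CPM in U266 with IT848, against 222, 237 and 226 CPM with DMSO. IARS, for isoleucine, had 547, 568 and 559 CPM with IT848, against 482, 509 and 497 CPM with DMSO. Their groups did not overlap, and the log2 fold changes were 0.18 ± 0.04 and 0.17 ± 0.03 (edgeR adjusted p = 0.00972 and 0.00476). MARS had 219, 221 and 226 CPM in U266 with IT848, against 202, 199 and 199.7 CPM with DMSO. YARS, the tyrosine enzyme gene, had 188, 179 and 189 CPM with IT848, against 169.8, 168 and 168 CPM with DMSO. These last changes were 0.15 ± 0.04 and 0.13 ± 0.04 (edgeR adjusted p = 0.0247 and 0.0359), and the groups were apart in both genes.

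HARS, for histidine, is a neighbour of HARS2 that is read in the opposite direction, with overlapping exons. HARS exons also overlap those of WDR55 on the opposite strand. Reads in the shared stretches cannot be told apart without the strand setting, and the length of the overlaps was not measured. In MM.1S, HARS had 312, 323 and 316 CPM with IT848, against 279.5, 285 and 287 CPM with DMSO, and HARS2 had 64.0, 62.0 and 58.4 CPM with IT848, against 57.3, 59.1 and 52.0 CPM with DMSO. In U266, HARS had 433, 414 and 424 CPM with IT848, against 397, 364 and 387 CPM with DMSO, and HARS2 had 58.0, 60.7 and 60.5 CPM with IT848, against 62.8, 60.8 and 64.2 CPM with DMSO. HARS rose by 0.16 ± 0.04 in MM.1S and 0.15 ± 0.04 in U266 on the log2 scale (edgeR adjusted p = 0.00579 and 0.029). HARS2 did not pass the test in either line, with estimates of 0.13 ± 0.05 and −0.07 ± 0.05 (edgeR adjusted p = 0.0678 and 0.548).

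WARS, the tryptophan enzyme gene, is also known to respond to interferon gamma. It had 114, 111 and 107 CPM in MM.1S with IT848, against 107, 115 and 116 CPM with DMSO, and 641, 629 and 676 CPM in U266 with IT848, against 619, 606 and 588 CPM with DMSO. The MM.1S groups overlapped and the U266 groups did not. Neither change passed the test, with log2 values of −0.02 ± 0.04 in MM.1S and 0.10 ± 0.04 in U266 (edgeR adjusted p = 0.728 and 0.191).

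CARS, GARS, HARS, MARS and YARS were called higher in both lines, which is 50% of the 10 called in MM.1S and 62.5% of the 8 called in U266. Of all genes, 2.31% were called higher and 2.97% lower in both lines, and no member was called lower in both. The estimates had the same sign in both lines for 15 of the 19 cytosolic genes and 9 of the 16 mitochondrial genes, VARS2 included among the 16. The share of all genes with the same sign was not counted.

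Grouped by structure, 8 cytosolic enzymes belong to the multi-synthetase complex, a large assembly held together by the scaffold proteins AIMP1, AIMP2 and EEF1E1. Of these 8 genes, MARS, RARS and EPRS rose and LARS fell in MM.1S, and IARS, LARS and MARS rose in U266. Of all genes, 18.7% were called higher and 19.6% lower in MM.1S, and 4.03% and 4.98% in U266, so the 1 lower call of 8 in MM.1S is not above the share of all genes, and that call was lost under 7 of 20 alternatives. The other 11 measured cytosolic genes gave 7 higher and 2 lower calls in MM.1S and 5 higher calls in U266, with median log2 changes of 0.18 and 0.13, against −0.05 and 0.05 in the complex. None of the 3 scaffold genes was called in either line by edgeR's test or by DESeq2, and 0 had an unadjusted p below 0.05. AIMP1 had estimates of 0.13 ± 0.07 in MM.1S and 0.08 ± 0.07 in U266, AIMP2 of −0.08 ± 0.05 and −0.01 ± 0.05, and EEF1E1 of −0.03 ± 0.10 and 0.03 ± 0.11.

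Grouped by regulation, 12 cytosolic synthetase genes are listed as ATF4-responsive: AARS, CARS, EPRS, GARS, IARS, LARS, MARS, NARS, SARS, TARS, WARS and YARS. In MM.1S 8 of them were called higher and 1, LARS, lower, with a median log2 change of 0.20. In U266 7 were called higher and none lower (0 lower at an unadjusted p below 0.05 and 0 by DESeq2), with a median of 0.14. The IT848 libraries there lay above the DMSO libraries for all 12, against 14.3% of all genes. The shares of all genes called higher and lower were 18.7% and 19.6% in MM.1S and 4.03% and 4.98% in U266. The 1 lower call in MM.1S is therefore not above the share of all genes. The 7 other measured cytosolic genes gave 2 higher and 2 lower calls in MM.1S, near the share of all genes, and 1 higher call in U266. Their medians were −0.10 and −0.04. All 7 cytosolic genes whose promoter stretch is printed above are among the 12 listed, so these groupings are not separate. The 7 had median changes of 0.33 in MM.1S and 0.17 in U266, with 5 called higher in each line. The 9 cytosolic genes whose windows lack the letters had medians of −0.02 and −0.01, with 4 called higher and 2 lower in MM.1S and 1 called higher in U266. Their 2 lower calls stand near the share of all genes.

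Among the 16 mitochondrial genes, 3 fell in MM.1S with IT848, SARS2, EARS2 and MARS2, and 1 rose, YARS2, with a median log2 change of −0.07. U266 had a single call, TARS2, which fell, and the median was −0.08. These shares, 4 of 16 and 1 of 16, stand beside 38.3% and 9.01% of all genes. Both medians include VARS2, whose change is not read here.

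SARS2, for mitochondrial serine tRNA, had 13.3, 15.7 and 13.5 CPM in MM.1S with IT848, against 18.4, 18.1 and 18.1 CPM with DMSO. EARS2, for glutamate, had 53.1, 49.1 and 45.5 CPM with IT848, against 60.8, 60.6 and 57.7 CPM with DMSO. MARS2, for methionine, had 18.8, 18.5 and 17.8 CPM with IT848, against 21.4, 21.5 and 23.1 CPM with DMSO. In all 3 genes the IT848 libraries were the lower ones without overlap. The log2 fold changes were −0.36 ± 0.07, −0.28 ± 0.05 and −0.26 ± 0.06 (edgeR adjusted p = 0.000804, 0.000789 and 0.00285). Exons of several members overlap protein-coding genes on the opposite strand, so reads could be shared there: SARS2 with MRPS12, EARS2 with UBFD1, YARS with S100PBP, WARS with WDR25, KARS with TERF2IP, AARS2 with TMEM151B and CARS2 with ING1. SARS2 and HARS2 also overlap a protein-coding gene on their own strand.

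YARS2, the mitochondrial tyrosine gene and the only mitochondrial one with the motif, had 13.2, 13.4 and 14.4 CPM in MM.1S with IT848, against 12.8, 11.7 and 11.7 CPM with DMSO. The groups were apart, but the change of 0.18 ± 0.07 was near the threshold (edgeR adjusted p = 0.0496) and was lost under 9 of 20 alternatives, among them leaving out the second or the third library of either MM.1S group or the third U266 DMSO library. TARS2, for threonine, had 124, 123 and 125 CPM in U266 with IT848, against 138, 132 and 138 CPM with DMSO. Its change of −0.13 ± 0.04 (edgeR adjusted p = 0.0433) was lost under 11 of 20 alternatives, including the omission of any of the 3 U266 IT848 libraries, of the first or the third U266 DMSO library, or of the first or the second MM.1S DMSO or the second MM.1S IT848 library.

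**Figure D2:**
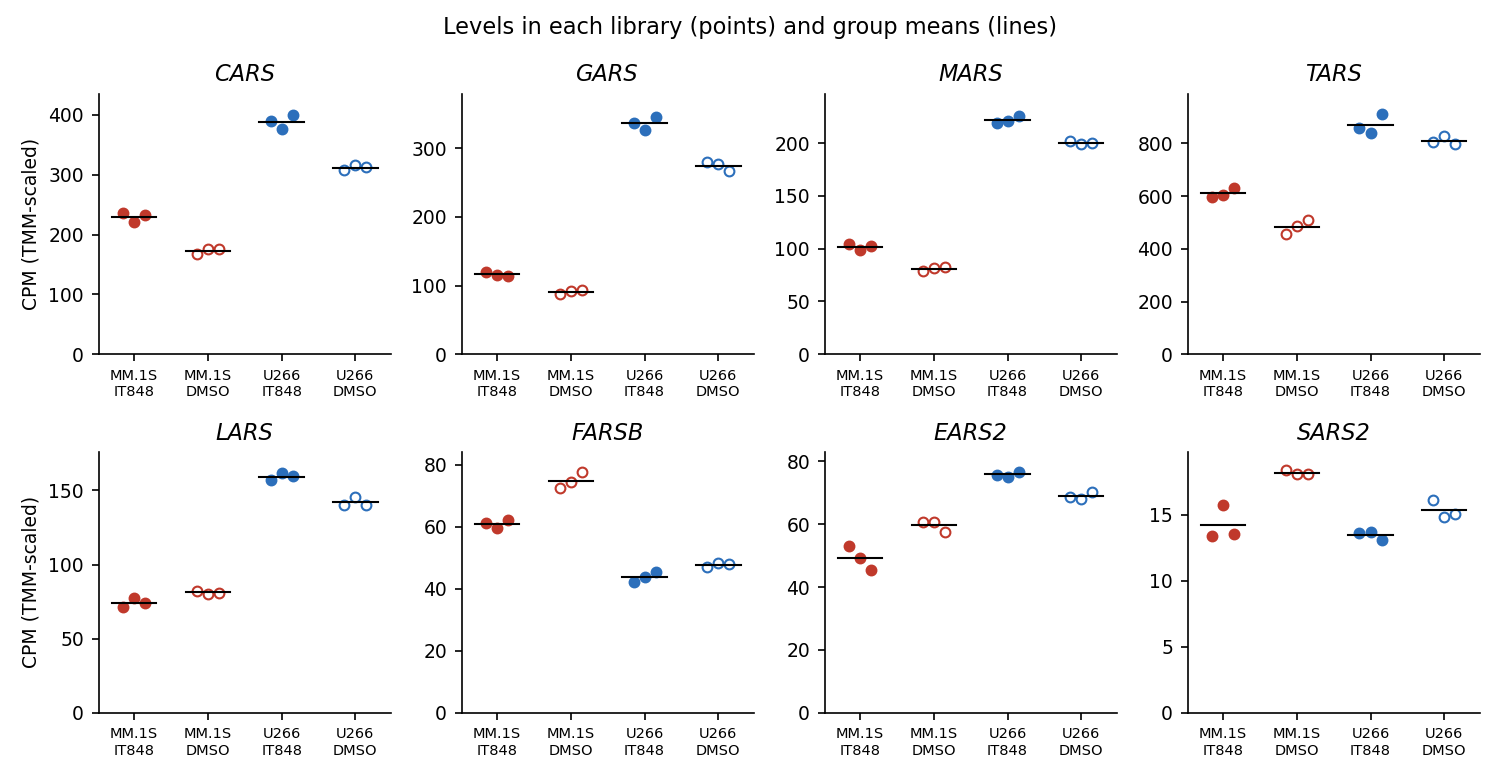
TMM-scaled CPM (y axis, from 0) in each library (points) for 8 members, with IT848 filled, DMSO open and group means as lines. LARS and EARS2 are lower with IT848 in MM.1S and higher with IT848 in U266, while CARS and GARS are higher with IT848 in both lines. Levels are comparable within a panel, not between panels.

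The response differed between the lines for 5 members by a test of the difference itself, MM.1S change minus U266 change. It was higher in MM.1S for 2 of 35 members, TARS and MARS, and lower for 3, LARS, EARS2 and IARS, against 8.49% and 8.94% of all genes, 17.4% together. LARS, the leucine enzyme gene, had 71.3, 77.1 and 73.8 CPM in MM.1S with IT848, against 82.3, 80.4 and 81.1 CPM with DMSO. In U266 it had 157, 161 and 159.7 CPM with IT848, against 140.5, 145 and 140.0 CPM with DMSO. It therefore fell in MM.1S, by 0.13 ± 0.04, and rose in U266, by 0.17 ± 0.04 (edgeR adjusted p = 0.0164 and 0.0139), without overlap in either line. The difference was −0.30 ± 0.06 (edgeR adjusted p = 0.00224). It passed under all 19 alternatives tried, whereas the fall in MM.1S was lost under 7 of 20. Among these 7 were removal of a trend with transcript length and leaving out the first MM.1S DMSO library. Leaving out the first or the third MM.1S IT848 library also ended that call. The rise in U266 was lost under 5. These were the omission of the 2 libraries with more reads of the other line's genes and of the single libraries named above.

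EARS2 showed the largest difference of the members that could be read. Its U266 levels were 75.8, 75.1 and 76.8 CPM with IT848, against 68.6, 68.0 and 70.3 CPM with DMSO, a set of groups without overlap in the direction opposite to MM.1S. The U266 change alone, 0.14 ± 0.05, did not pass (edgeR adjusted p = 0.125). The difference of −0.42 ± 0.07 did (edgeR adjusted p = 0.00149), and it held under all 19 alternatives.

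IARS had 331, 329.9 and 332 CPM in MM.1S with IT848, against 333, 331 and 335 CPM with DMSO, which overlap, and its change there was −0.01 ± 0.03. Its difference was −0.18 ± 0.05 (edgeR adjusted p = 0.0197). For TARS, U266 had 859, 838 and 911 CPM with IT848, against 804, 829.8 and 798 CPM with DMSO, a change of 0.10 ± 0.05 that did not pass. The difference was 0.23 ± 0.06 for TARS and 0.18 ± 0.05 for MARS (edgeR adjusted p = 0.0205 and 0.0293). These 3 calls depended on the libraries: of 19 alternatives, IARS lost its call under 8, MARS under 7 and TARS under 4. The libraries whose omission ended the call were, for IARS, the first and the third U266 DMSO, the second and the third U266 IT848 and the second MM.1S IT848 library. For MARS they were the first and the third U266 DMSO, the first and the second U266 IT848 and the first and the second MM.1S DMSO library. For TARS they were the second U266 DMSO, the second U266 IT848 and the first MM.1S DMSO library. The count of 4 cytosolic differences was 1, LARS, without the 2 libraries with more reads of the other line's genes. It was 1 without the second U266 IT848 library, 2 without the first U266 DMSO library and 2 without the first MM.1S DMSO library.

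Under DMSO, the lines differed far more than either line changed with IT848. All 19 measured cytosolic genes differed between MM.1S and U266: 17 were lower and 2, FARSB and EPRS, were higher in MM.1S. The median log2 difference was −0.81, against −0.02 for all genes. By the same rule 82.6% of all genes were called, 40.6% higher and 42.1% lower in MM.1S. The 3 MM.1S libraries were all above the 3 U266 libraries for those 2 genes and all below for the 17, against 41.6% and 43.2% of all genes. Differences between the lines and in the making of their libraries cannot be told apart.

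WARS had 107, 115 and 116 CPM in MM.1S with DMSO, against 619, 606 and 588 CPM in U266 with DMSO, a log2 fold change of −2.42 ± 0.05. GARS had 88.0, 91.6 and 93.5 CPM in MM.1S, against 279.8, 276.5 and 267 CPM in U266, or −1.59 ± 0.04. MARS followed at −1.30 ± 0.04 and NARS, with 98.0, 100.3 and 103 CPM in MM.1S against 222, 237 and 226 CPM in U266, at −1.19 ± 0.04. No MM.1S library reached the level of a U266 library for these 4 genes (edgeR adjusted p = 1.50e-15, 3.31e-14, 1.46e-13 and 6.16e-13). FARSB had 72.6, 74.4 and 77.5 CPM in MM.1S, against 47.0, 48.2 and 47.9 CPM in U266, and was higher by 0.65 ± 0.04 (edgeR adjusted p = 2.38e-09). FARSA, the other subunit of the same enzyme, was lower in MM.1S by a log2 value of −0.63 ± 0.05 (edgeR adjusted p = 8.93e-09).

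Of the 16 mitochondrial genes, 7 were higher and 7 lower in MM.1S than in U266, and FARS2 and RARS2 did not pass the test. Both counts stand near the share of all genes, 40.6% higher and 42.1% lower. The median log2 difference was −0.06. The 7 lower genes and the median include VARS2, whose value is not read here. MARS2 had 21.4, 21.5 and 23.1 CPM in MM.1S with DMSO, against 6.94, 7.39 and 7.66 CPM in U266 with DMSO, a log2 fold change of 1.58 ± 0.06 (edgeR adjusted p = 3.50e-12). The groups were far apart, and the cytosolic methionine gene MARS differed in the opposite direction. AARS2, for alanine, had 22.7, 22.2 and 21.3 CPM in MM.1S, against 14.3, 13.4 and 15.1 CPM in U266, and CARS2, for cysteine, had 29.6, 28.4 and 26.5 CPM, against 19.1, 17.8 and 17.9 CPM. Their log2 fold changes were 0.63 ± 0.07 and 0.62 ± 0.06 (edgeR adjusted p = 5.38e-07 and 7.98e-08), and YARS2, SARS2, LARS2 and TARS2 were higher by 0.46, 0.25, 0.22 and 0.19. The genes lower in MM.1S were WARS2 and PARS2, at −0.72 and −0.69, and NARS2, EARS2, HARS2 and IARS2, between −0.27 and −0.13. HARS2 lost its call without the third MM.1S DMSO library, and IARS2 without the first or the second MM.1S DMSO library or the second U266 DMSO library.

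**Figure D3:**
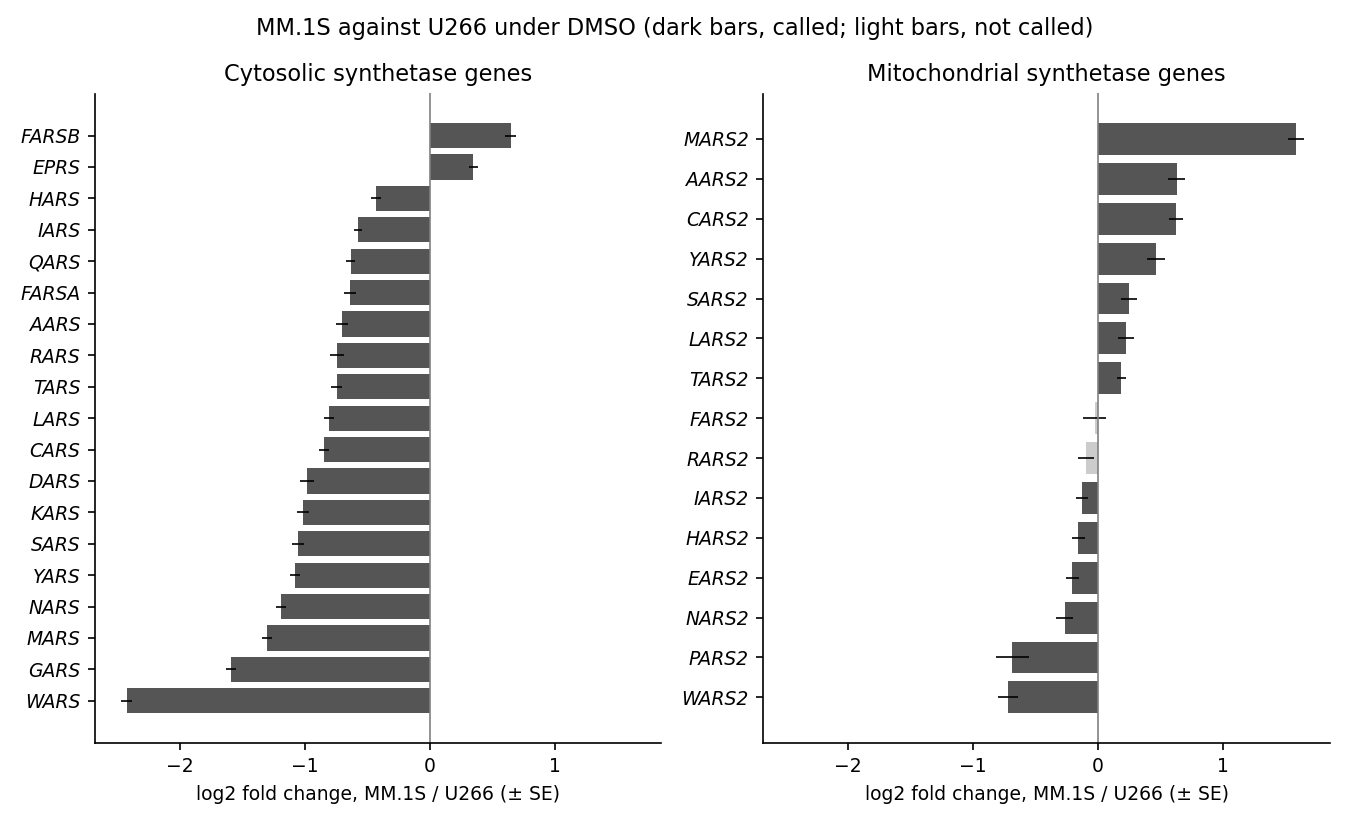
Log2 fold change of MM.1S over U266 under DMSO (x axis, ± SE) for 19 cytosolic and 15 mitochondrial synthetase genes. Dark bars passed the test. All but 2 cytosolic bars point to U266, with WARS at −2.42, while the mitochondrial bars point both ways and MARS2 stands at 1.58.

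Levels of different genes were compared per length, as FPKM of the most counted transcript. In MM.1S with DMSO, EPRS was highest at 89.2 FPKM, then NARS at 77.3, FARSB at 74.0, GARS at 73.1, AARS at 70.3 and FARSA at 70.0 FPKM, where all neighbours from NARS to FARSA overlapped over libraries. U266 with DMSO had another order, with GARS at 219 FPKM first, then NARS at 175, MARS at 151, YARS at 119, WARS at 116 and AARS at 114 FPKM, and neighbours from YARS to AARS overlapped. WARS was 23rd in MM.1S, at 21.7 FPKM. The lowest measured members were PARS2, for mitochondrial proline, at 3.15 FPKM in MM.1S and 5.03 FPKM in U266, and WARS2 at 4.23 FPKM in MM.1S and MARS2 at 5.21 FPKM in U266.

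Summed over the cytosolic genes, the level was 1087 ± 11.4 FPKM in MM.1S with IT848 and 1009 ± 23.9 FPKM in MM.1S with DMSO, and 1973 ± 35.7 FPKM in U266 with IT848 and 1825 ± 11.6 FPKM in U266 with DMSO (SD, n = 3 each). The mitochondrial sum was 236 ± 3.63 FPKM in MM.1S with IT848 and 243 ± 0.930 FPKM with DMSO, and 214 ± 2.96 FPKM in U266 with IT848 and 224 ± 1.37 FPKM with DMSO. IT848 over DMSO, the cytosolic sum thus stood at 1.08 in each line and the mitochondrial sum at 0.968 in MM.1S and 0.957 in U266. The ratio of the cytosolic to the mitochondrial sum was 4.62 ± 0.11 in MM.1S with IT848 and 4.15 ± 0.11 with DMSO, and 9.21 ± 0.11 in U266 with IT848 and 8.16 ± 0.07 with DMSO. No IT848 library overlapped a DMSO library of its line in this ratio. Between the lines under DMSO, MM.1S over U266, the cytosolic sum stood at 0.553 and the mitochondrial sum at 1.09. No test was run on these sums, since the members were chosen with earlier results known, and GARS and KARS are counted as cytosolic although they serve both compartments.

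**Figure D4:**
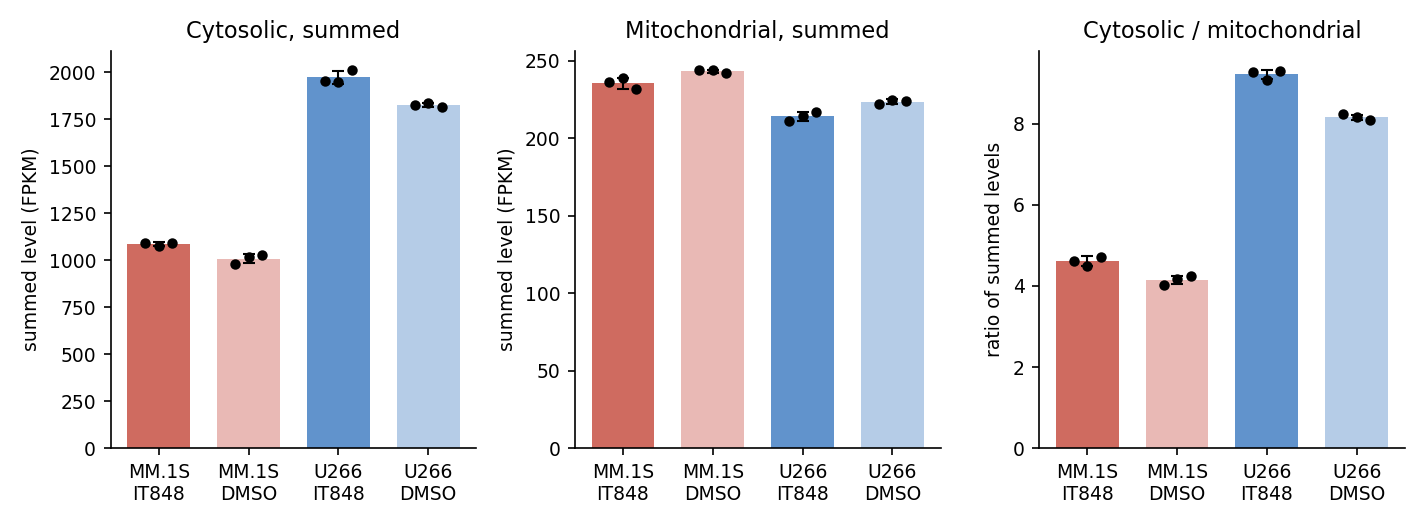
Summed per-length levels (FPKM) of the cytosolic and the mitochondrial synthetase genes and their ratio, as bars (mean of 3 libraries, from 0) with SD and points for single libraries. The cytosolic sum is 1087 and 1009 FPKM in MM.1S with IT848 and DMSO, and 1973 and 1825 FPKM in U266.

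For 15 mitochondrial genes a cytosolic gene for the same amino acid was measured. EPRS was paired with both EARS2 and PARS2, and FARS2 was paired with FARSA only, although FARSB had another level. In U266 with DMSO, FARSA stood at 108 FPKM and FARSB at 46.9 FPKM. The cytosolic gene had the higher level in all 15 pairs, except that MM.1S with DMSO had 14, where CARS stood at 0.829 ± 0.064 of CARS2 (SD, n = 3). With IT848 that ratio in MM.1S was 1.15 ± 0.08. The median ratio over the pairs was 5.40 in MM.1S with IT848 and 3.91 with DMSO, and 11.1 in U266 with IT848 and 8.85 with DMSO. MARS over MARS2 spread most widely between the lines: it was 3.91 ± 0.09 in MM.1S with DMSO, against 29.0 ± 1.7 in U266 with DMSO. IARS and IARS2 were near each other in MM.1S, at 1.12 with either treatment, and at 1.88 in U266 with IT848 and 1.53 with DMSO.

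**Figure D5:**
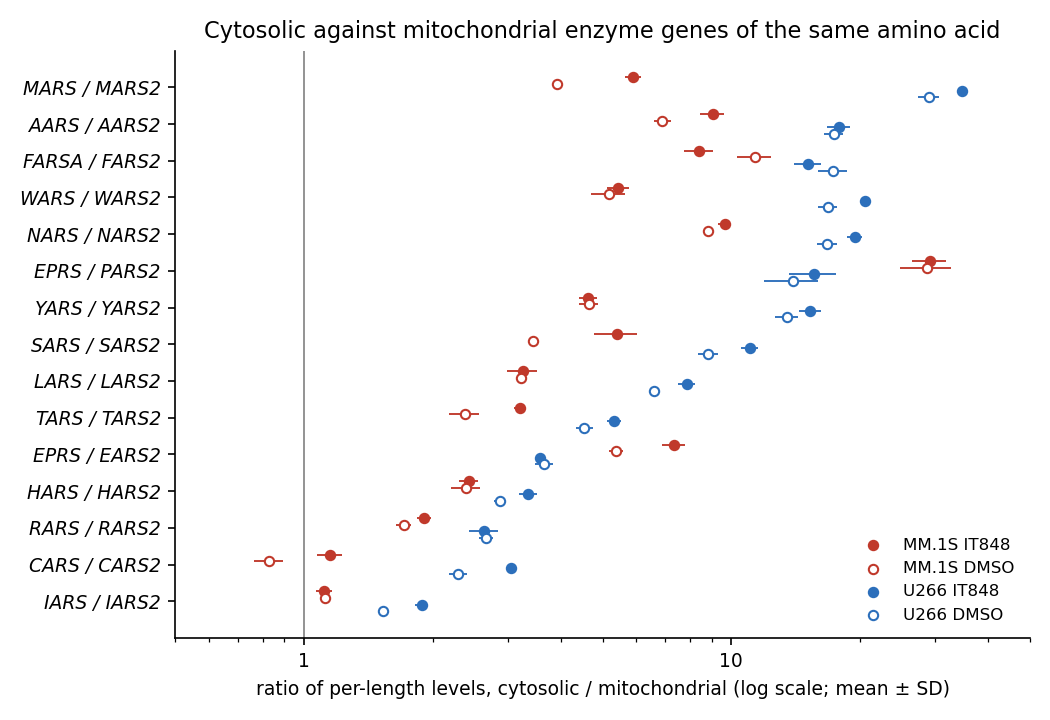
Ratio of per-length levels of the cytosolic over the mitochondrial gene for the same amino acid (x axis, log scale, mean ± SD of 3 libraries) for 15 pairs in the 4 groups. Nearly all points lie right of 1. CARS / CARS2 in MM.1S with DMSO lies left of it, at 0.829, and MARS / MARS2 is farthest right in U266.

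A list of 13 measured genes senses uncharged tRNA or carries the ATF4 response. In U266 10 rose and none fell by edgeR's test (2 were lower at an unadjusted p below 0.05 and 2 by DESeq2), with a median log2 change of 0.40, and in MM.1S 6 rose and 2 fell, with a median of 0.15. The difference of responses was called for 8, all lower in MM.1S, against 8.94% of all genes called lower. The shares of all genes called higher and lower were 4.03% and 4.98% in U266 and 18.7% and 19.6% in MM.1S. The 2 falls in MM.1S are therefore not above the share of all genes. ATF4 had 320.0, 327 and 332 CPM in MM.1S with IT848, against 273, 263 and 282 CPM with DMSO, and 675, 672 and 707 CPM in U266 with IT848, against 615, 613 and 606 CPM with DMSO. It rose by 0.26 ± 0.04 and 0.16 ± 0.04 in these lines (edgeR adjusted p = 9.20e-05 and 0.0113), without overlap. ASNS, asparagine synthetase, rose by 0.58 ± 0.05 in MM.1S and 0.40 ± 0.05 in U266, and TRIB3, a pseudokinase that ATF4 induces, by 0.43 ± 0.06 and 0.77 ± 0.06 (edgeR adjusted p = 1.05e-06, 0.000175, 3.75e-05 and 7.38e-07). CEBPB, a partner factor, rose in both lines, by 0.44 ± 0.08 and 0.68 ± 0.07.

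Other members of this response differed between the lines. PPP1R15A, a phosphatase subunit that restores translation, rose by 0.30 ± 0.06 in MM.1S and by 0.91 ± 0.07 in U266, and ATF3 had −0.11 ± 0.06 in MM.1S, not called, and rose by 0.87 ± 0.06 in U266. SESN2, a leucine sensor upstream of mTORC1, fell by 0.34 ± 0.07 in MM.1S and rose by 0.38 ± 0.06 in U266, with a difference of −0.72 ± 0.10 (edgeR adjusted p = 0.000183). GCN1L1, which helps activate GCN2, fell by 0.49 ± 0.05 in MM.1S (edgeR adjusted p = 2.16e-06), and the kinase gene EIF2AK4 itself was not called in either line, with −0.03 ± 0.04 in MM.1S and −0.12 ± 0.04 in U266.

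Amino acid transporter genes rose in 9 of 11 cases in U266, where 1 fell, and gave 5 higher and 3 lower calls in MM.1S. The shares of all genes called higher and lower were 4.03% and 4.98% in U266 and 18.7% and 19.6% in MM.1S. The 3 lower calls in MM.1S thus stand near the share of all genes. SLC7A11, the cystine importer, had 29.3, 30.3 and 29.2 CPM in MM.1S with IT848, against 6.91, 7.08 and 6.50 CPM with DMSO. In U266 it had 65.6, 69.5 and 66.3 CPM with IT848, against 38.2, 46.7 and 42.6 CPM with DMSO. The groups were apart in both lines, and it rose by 2.12 ± 0.07 and 0.66 ± 0.06 (edgeR adjusted p = 4.86e-11 and 8.42e-06). SLC6A9, a glycine transporter, rose by 0.82 ± 0.08 in MM.1S and 0.91 ± 0.08 in U266, and SLC1A5, a glutamine transporter, by 0.32 ± 0.05 and 0.46 ± 0.05. SLC7A5, the large neutral amino acid transporter that carries leucine, had −0.12 ± 0.05 in MM.1S, not called, and rose by 0.55 ± 0.05 in U266, with a difference of −0.67 ± 0.08 (edgeR adjusted p = 4.69e-05). SLC7A6 fell in both lines, by 0.48 ± 0.05 and 0.18 ± 0.05. SLC43A1, with a mean of only 1.34 CPM in U266 with DMSO, rose by 0.78 ± 0.17 in U266. In MM.1S it had −0.07 ± 0.14 and was not called.

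XPOT, which exports tRNA from the nucleus, had 119, 117 and 117 CPM in MM.1S with IT848, against 107, 107 and 109.6 CPM with DMSO. In U266 it had 201, 210.2 and 209 CPM with IT848, against 164, 170.3 and 166 CPM with DMSO. It rose in both lines without overlap, by 0.12 ± 0.04 and 0.31 ± 0.04 (edgeR adjusted p = 0.0143 and 5.64e-05), and the rise was smaller in MM.1S by 0.18 ± 0.05 (edgeR adjusted p = 0.0226). Of the 6 measured genes of tRNA export, end repair and editing, DTD1, a deacylase that removes mischarged D-amino acids, also rose in MM.1S, by 0.22 ± 0.06. XPO5, an exporter of small RNAs, and TRNT1, which adds the CCA end to tRNA, fell there by 0.42 ± 0.05 and 0.38 ± 0.10. In that line 18.7% of all genes were called higher and 19.6% lower.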

How the data were processed

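The tools named in the submitters' processing notes are STAR 2.5.2b, Subread 1.5.2 with featureCounts, Trimmomatic 0.36 and bcl2fastq, and the build is hg19. Not given in the sources used here are the annotation release, the strand setting and how multiply aligned reads were treated. Each deposited table gives, per the file headers, a count, an FPKM and a TPM for 51780 transcripts. The count is the authors' number of reads on a transcript, and a read can enter several transcripts, so per-gene sums repeat reads by isoform. The deposited FPKM, scaled by length and library total, gave transcript lengths, and the deposited TPM served as an alternative.

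Transcript counts were summed per symbol and tested with edgeR 4.0.16 (quasi-likelihood F test, robust, TMM, minimum count 10) in R 4.3.3 on all 12 libraries, with Benjamini-Hochberg adjustment over 16782 genes and calls at adjusted p below 0.05. CPM are TMM-scaled. FPKM printed here use the most counted transcript per gene and TMM-scaled totals. The procedure was tested on simulated data. Alternatives were DESeq2 1.42.0, other scaling, no filter, 1 transcript per gene, removal of a length trend, omitted libraries, a replicate block, and fits of only the groups compared.

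The members and gene lists were chosen with earlier results of these data known. Members named with values were mainly, by a rule, those called with the largest changes. The rule took up to 8 cytosolic and 4 mitochondrial per response, and 4 per direction for the other comparisons. HARS, HARS2 and WARS were added by name. From the other lists it took up to 3 called genes per list and direction. The scaffold genes, XPOT, ATF4, ASNS and TRIB3 were named whatever the size of their changes. Some genes, among them DDIT3, EIF2AK4 and EEF1D, were given outside the rule, and not every gene that it allows is named. RefSeq promoter windows are in GRCh38.p14, and no hg19 annotation was used. Counting error is largest for the members with few counts, such as PARS2 and FARS2, and reads carry no molecular identifiers.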

Additional observations from a re-analysis of the deposited data

Results flagged for a closer look

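Of 35 synthetase genes tested, 5 are given here because their response to IT848 differed between the lines by a test of the difference itself, the MM.1S change minus the U266 change on the log2 scale. By the same test 17.4% of all genes differed, so this count is not above the share of all genes. The value was −0.30 for LARS and −0.42 for EARS2, whose estimates have opposite signs in the lines, and −0.18 for IARS, which rose in U266 and had an estimate of −0.01 in MM.1S. It was 0.23 for TARS and 0.18 for MARS, whose estimates were positive in both lines and larger in MM.1S. Of 19 alternatives, IARS lost its call under 8, MARS under 7 and TARS under 4, while LARS and EARS2 kept theirs.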

How the results depend on the processing

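The counts of cytosolic genes called in MM.1S (12 to 15 against 13, with 10 called higher throughout) and between the lines (19) stayed within 1.5 times under every alternative run. In U266 the cytosolic count of 8 was 4 without the 2 libraries with more reads of the other line's genes. It was 3 to 9 with each library left out in turn. The 4 cytosolic differences between responses were 1 without those 2 libraries and 1 to 5 with each library left out. Mitochondrial calls in MM.1S, 4, were 7 with DESeq2 and 3 to 6 with each library left out. The single mitochondrial call in U266 was 0 without the filter, with 1 transcript per gene or without the 2 libraries, 2 with the length trend removed or with only the groups compared, and 0 to 2 with each library left out. The mitochondrial difference count of 1 was 3 with DESeq2 and 1 to 2 with each library left out. The cause of these shifts was not tested.

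Whether replicate numbers pair the libraries was not settled. Deviations of libraries with the same number correlated at 0.51, −0.148 and 0.51 in MM.1S and 0.27, 0.223 and −0.0673 in U266. With different numbers the correlations ran from −0.551 to 0.128 in MM.1S and from −0.269 to 0.126 in U266. The main fit did not use pairs. A replicate block gave 15 and 10 cytosolic and 7 and 2 mitochondrial calls in MM.1S and U266, with 6 and 2 differences, and 7331 and 2155 calls over all genes against 6430 and 1512. Over all genes the difference of responses gave 4388 calls with the block and 1712 without the 2 libraries, against 2924, and U266 gave 924 without those libraries and 986 without the third DMSO library. Without GARS and KARS, the cytosolic to mitochondrial ratio was 4.04 in MM.1S with IT848, 3.66 in MM.1S with DMSO, 7.55 in U266 with IT848 and 6.77 in U266 with DMSO, by construction lower. The log2 change of SLC38A1 in MM.1S was 0.12 with the length trend removed, against −0.04. Of 2764 member values under alternatives, 52 changed sign, none of a called result. Length trends in the deviations from the mean of each line differed between libraries, with rank correlations of −0.484 to 0.451. Depth limits the members with the fewest counts: PARS2 had 2.97 to 6.09 CPM and an SE of 0.14 in MM.1S, and FARS2 had 4.65 to 6.40 CPM and an estimate of 0.24 ± 0.09 that was not called (edgeR adjusted p = 0.0539).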

Other observations

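Genes of cytosolic elongation factors gave calls in MM.1S and none in U266, where 0 of 6 had an unadjusted p below 0.05 and DESeq2 called 0. In MM.1S 4 of 6 rose, beside 18.7% of all genes, EEF1B2 by 0.44 ± 0.12, EEF1A1 by 0.31 ± 0.07, EEF1G by 0.29 ± 0.04 and EEF1D by 0.12 ± 0.05 (edgeR adjusted p = 0.00952, 0.00395, 0.000143 and 0.0474). The corresponding U266 estimates were 0.07 ± 0.12, −0.01 ± 0.07, 0.01 ± 0.04 and 0.09 ± 0.05, and the difference of responses was called for EEF1A1 and EEF1G. EEF1B2 had 561, 690.3 and 865 CPM in MM.1S with IT848, against 477, 518 and 565 CPM with DMSO, and these groups overlap. EEF1A1 and EEF1B2 have near-identical copies elsewhere in the genome, so their counts are uncertain.

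Of 9 other genes of mitochondrial charging and translation, 2 rose and 1 fell in MM.1S, beside 18.7% and 19.6% of all genes. These counts are thus not clearly above the share of all genes. None was called in U266 by edgeR or DESeq2, with 1 at an unadjusted p below 0.05, beside 9.01% of all genes called. GATB, a subunit of the amidotransferase that makes mitochondrial glutaminyl-tRNA, rose by 0.37 ± 0.07 and GFM2 by 0.37 ± 0.06, while TUFM fell by 0.13 ± 0.04 (edgeR adjusted p = 0.000629, 0.000166 and 0.0227). Among 6 genes of selenocysteine synthesis and insertion, SEPHS2, itself a selenoprotein that makes the selenium donor, rose by 0.32 ± 0.04 in MM.1S and 0.35 ± 0.04 in U266 (edgeR adjusted p = 6.60e-05 and 7.50e-05). SECISBP2, which binds the insertion element, fell by 0.16 ± 0.05 in MM.1S (edgeR adjusted p = 0.0163).

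By the structural classes of the catalytic domain, class I held 18 measured members, with 6 called higher and 3 lower in MM.1S and 5 higher in U266. EPRS, which carries both the glutamate and the proline enzyme, was counted in class I only. The 18 include VARS2, whose change is not read here. Class II held 17, with 5 higher and 3 lower in MM.1S and 3 higher and 1 lower in U266. Of all genes, 18.7% were called higher and 19.6% lower in MM.1S, and 4.03% and 4.98% in U266, so the lower calls of both classes in MM.1S stand near the share of all genes.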
